A study of Mus musculus with 47 samples.

Results

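Decay of mRNA at day 6 of neuronal differentiation (D6) was followed in 11 of the 47 SLAM-seq libraries of the series, all those labeled as differentiated and catabolic. P19 cells, a wild-type mouse embryonal carcinoma line, were differentiated for 6 days in NDiff 227 medium with 500 nM retinoic acid. The cells then took up 4-thiouridine (4sU), a uridine analog, at 500 µM for 15 h (13 h is given where the normalization is described), with fresh 4sU supplied 3 h before the end, and were moved to medium with 10 mM UTP to chase the label. The libraries carry the times 0, 1, 3 and 9 (T0, T1, T3 and T9, with 3, 3, 2 and 3 libraries), whereas the methods give 0, 3, 6 and 9 h, so that 0 and 9 h are the times on which both agree. Every library came from the same line under the same medium, retinoic acid and 4sU dose, and the study calls its replicates biological. The sources do not say whether the libraries of this course came from separate cultures, and the p-values below measure the spread between them.

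In SLAM-seq, alkylated 4sU is read as C in place of T, and the T>C conversion rate of a transcript (conversions over covered T positions of its 3′ UTR) is used as a relative measure of the label on its RNA. It is not the share of molecules that carry label. A rate falls both as labeled molecules decay and as unlabeled ones are made, and these cannot be told apart within the course. Of 28190 RefSeq mRNA transcripts in the files, 12906 were covered at 1000 or more T positions in the average library, and 12902 could be tested. Taking the best covered transcript of each gene left 8145 genes, of which 2058 had at least 10000 covered T positions and 208 at least 50000. Libraries are called by the numbers in their labels (7 to 9 at T0, 10 to 12 at T1, 14 and 15 at T3, 16 to 18 at T9), and values per library are given in that order. "Label left" is the mean rate at a time point as a percentage of the mean rate at T0, with the SD over the libraries of that time point after the ± sign. The ± of a log2 rate or log2 fold change is the standard error of the fit.

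The life of a cytoplasmic mRNA usually ends with the loss of its poly(A) tail, after which the message is decapped and digested from its 5′ end or degraded from its 3′ end by the exosome. Messages for housekeeping proteins, such as those of the ribosome and of the respiratory chain, are known to persist, whereas those for transcription factors and signaling regulators are known to turn over fast. AU-rich elements in the 3′ UTR, recognized by proteins of the Zfp36 family that recruit deadenylases, are among the sequences that shorten the life of an mRNA, and the 5′ terminal oligopyrimidine (TOP) motif marks the messages of the translation machinery.

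Reads on mRNA 3′ UTRs ranged from 1421076 to 7607103 per library, and covered T positions from 32369715 to 177418928, with both T3 libraries the shallowest. The neuron markers chosen for the label check (Map2, Tubb3, Dcx, Stmn2, Elavl3 and 8 others) were all detected in the course, although Rbfox3 and Snap25 were each at 0 in 1 library. In every library they summed to between 9445 and 11665 CPM, a read level scaled to the total of the library. The 7 markers of neural progenitors summed to between 1758 and 3684 CPM, with 3034 to 3684 CPM at T0 and 2330 to 2713 CPM at T9. Those of pluripotent cells summed to between 1.66 and 8.62 CPM at T0 and between 27.2 and 78.5 CPM at T9 (Zfp42 and Dppa5a at 0). In both lists T0 and T9 did not overlap, and the part of this in the results below was not tested. The markers summed for glia came to between 0 and 218 CPM, and those of endoderm and mesoderm to between 0.175 and 58.2 CPM, with 6 of 11 at 0. The libraries thus held RNA of neurons together with RNA of progenitor markers. Of the progenitor markers Vim had the highest median (1299 CPM), and Nes was at 0 in 2 libraries. Library 14, of T3, stood apart from the rest. Its log2 CPM correlated with that of the other libraries with Pearson's r from 0.42 to 0.52 across transcripts, against 0.657 to 0.936 for the 45 other pairs.

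Label was as high at T1 as at T0, about a factor of 2 lower at T3, and low at T9. The rate over all transcripts was 4.89%, 4.80% and 4.25% in the libraries of T0 (4.65% ± 0.346, SD, n = 3) and 4.67% ± 0.532 at T1 (n = 3). It was 2.24% in library 14 and 2.28% in library 15 at T3, and 0.933%, 0.872% and 0.806% in the libraries of T9. The libraries of T9 lay below all others, those of T3 below those of T0 and T1, and T1 overlapped T0. An exact two-sided permutation test over libraries gave p = 1.0 for T1 against T0 and p = 0.1 for both T3 and T9, the smallest value that groups of this size allow. Libraries of D6 cells that never saw 4sU had a rate of 0.164% ± 0.0281 (n = 3), which is 18.9% of the rate at T9.

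The median gene lost label faster than the sum of all transcripts. Over the 2058 genes with at least 10000 covered T positions, median label left was 99.9% at T1, 38.9% at T3 (45.8% in library 15 alone, 21.97% in library 14) and 14.2% at T9, or 11.7% at T9 once the rate without 4sU was subtracted. The middle 50% of genes kept between 8.83% and 22.7% at T9. Only 99 of the 2058 genes kept more than 50%, and 165 kept less than 5%. Once the rate without 4sU was subtracted, these counts were 86 and 327. With no scaling, 4127 of 12902 transcripts had a lower rate at T9 than at T0 (32%, edgeR quasi-likelihood test, adjusted p under 0.05) and 1 a higher one (0.00775%), Eola1, which was at 0 in all libraries of T0 and covered at T9 in library 18 alone. The number lower at T9 was 2093 without library 7, 2265 without library 8 and 6275 by DESeq2, and none was higher without library 7, 8, 9 or 18. At T3, 177 transcripts were lower (1.37%). This count was 22 to 25 without library 7, 8, 9 or 10, 36 without library 11, 92 without library 12, 503 without library 17, 315 without library 18, 1385 without library 15 and 1569 by DESeq2. At T1 no transcript was called (0.0%), with 147 at an unadjusted p under 0.05 and 0 by DESeq2.

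Decay of single mRNAs was then compared with that of the typical mRNA, by scaling each library to its typical transcript. The median of the 12902 log2 rates at T9 against T0 was -3.07 before this scaling and -0.24 after it, and all calls below are relative to the typical transcript. At T9, 99 transcripts kept more label than typical (0.767% of 12902, called slower below) and 10 kept less (0.0775%, called faster). By gene these were 71 slower (0.872% of 8145) and 5 faster (0.0614%). Of the 71 slower genes 33 were on at least 1 of the 30 functional lists, among them ribosomal proteins, translation factors, respiratory chain subunits and cytoskeletal proteins. The lists held 1108 of the 8145 genes tested, and 441 of the 2058 genes with at least 10000 covered T positions. The 71 genes kept between 27.2% and 125% of their label, with a median of 58.8%. All 71 had at least 10000 covered T positions, and 37 had at least 50000. Among the 2058 genes with at least 10000, which all slower genes came from, 3.45% were thus slower and 0.146% faster, and the counts of slower genes on the lists are to be read against that share where most members are well covered. At T3, 37 transcripts were slower (0.287%) and 38 faster (0.295%). Without library 14 these were 1 and 4, and with library 14 alone at T3 they were 547 and 772, where the single library is assumed to vary like the other groups, so that no gene is named from T3. With any 1 library of T0 left out none was called at T3. At T1 none was either (0.0%), with 157 at an unadjusted p under 0.05 and 0 by DESeq2 and by limma.

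The counts at T9 moved with the libraries and the scaling, more so for the faster genes. Without library 14 the counts were 278 slower and 74 faster transcripts, without library 15 they were 277 and 83, and without both T3 libraries 286 and 74, with all 71 slower and all 5 faster genes kept in each of these fits. Leaving out library 7 of T0 gave 47 and 0, library 8 gave 49 and 0, library 9 gave 49 and 4, and library 17 of T9 gave 62 and 2. Without library 10 of T1 there were 6 faster. Scaling to the whole library rate gave 76 slower and 33 faster, against 99 and 10. Apart from the smallest p and the ends of the lists, genes named below were chosen after their values were seen. The call of 29 of the 71 slower genes held in each of the 11 fits that left out a library, and that of none of the 5 faster genes did.

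Proteins of the ribosome had the highest medians of label left. Of 29 large subunit genes tested, 7 were slower and none faster, and of 19 small subunit genes, 6 were slower and none faster. The 16 large subunit genes with at least 10000 covered T positions had a median of 63.1% label left at T9 and the 9 small subunit genes 67.8%, against 14.2% over all genes, and every one of the 25 lay above that median. Without library 14 or library 15 the slower genes were 13 on the large subunit list, and without library 7, 8, 9 or 17 they were 3 on the small subunit list. Rplp0, of the ribosomal stalk, had a rate of 3.53%, 2.31% and 3.00% in the libraries of T0, 3.89%, 3.96% and 3.59% at T1, 2.68% and 2.94% at T3, and 2.98%, 3.71% and 2.49% at T9. Its libraries of T9 overlapped those of T0, with 103.9% ± 20.8 of the label left (n = 3, adjusted p = 0.000889).

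Other ribosomal proteins did lose label. Rpl4, a large subunit protein named in the study, was at 4.62%, 4.49% and 4.14% at T0, 5.07%, 5.60% and 5.28% at T1, 3.501% and 3.38% at T3, and 3.05%, 2.20% and 1.79% at T9. All libraries of T9 lay below those of T0, with 53.1% ± 14.5 left and a relative log2 rate of 1.94 ± 0.31 (adjusted p = 0.00428, called in 24 of 24 alternatives). The least label was left on Rpl36al (24.7% ± 5.21) and on Rps27l (35.7% ± 18.5), neither of which passed the test. Rpsa had the most label left on the small subunit list, 88.2% ± 18.7, and did not pass it either (adjusted p = 0.168). Rps27rt (104.7% ± 11.04, adjusted p = 0.000238) is a near copy of another ribosomal protein gene. The files count no read that maps to several places, so that how such copies share reads could not be examined for this or the other ribosomal protein genes.

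Translation factors divided between slow and typical. Of 15 elongation factors and other TOP mRNAs tested, 4 were slower (2 without library 7, 8, 9, 10, 17 or 18). Eef2, the factor that moves the ribosome along the message, fell from 3.68%, 3.93% and 3.35% at T0 to 1.63%, 1.73% and 1.42% at T9 (43.7% ± 4.32 left, relative log2 rate 1.69 ± 0.25, adjusted p = 0.00184). Eef1a1, which delivers tRNA to the ribosome, kept 52.4% ± 11.3 (adjusted p = 0.0177, 0.000141 to 0.161 over the alternatives, the highest without library 7), and the initiation subunits Eif3h and Eif3f kept 75.2% ± 12.8 and 51.9% ± 24.2. The list ran from Eef1b2 (103% ± 66.3, adjusted p = 0.168) down to Eif4b (4.53% ± 3.48, or -2.24% after subtracting its rate without 4sU, adjusted p = 0.697), with a median of 33.04% over 10 genes. The other initiation factors were near the typical gene, with a median of 12.4% over 18 genes and none of 32 called. They ranged from Eif3i (54.5% ± 8.01) to Eif2b5 (2.16% ± 2.64). Nucleolar factors that assemble the ribosome had a median of 11.1% over 10 genes and mitochondrial ribosomal proteins 16.3% over 12 genes, so that neither list lay with the cytoplasmic ribosome.

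Respiratory chain subunits formed the other large slow group. Of 71 genes tested, 9 were slower and none faster, with a median of 42.3% label left over 39 genes, of which 38 lay above the median of all genes. The 9 became 4 without library 7, 8, 9 or 17, 5 without library 16, 21 without library 14 and 22 without library 15. Cox6c, a subunit of cytochrome c oxidase, was at 5.07%, 4.42% and 3.42% at T0, 4.86%, 4.34% and 3.22% at T1, 2.73% and 4.52% at T3, and 4.86%, 6.70% and 4.53% at T9. Its libraries of T9 overlapped those of T0, with library 17 above all of them (125% ± 27.2 left, relative log2 rate 3.22 ± 0.34, adjusted p = 0.000177). Also called slower were the cytochrome c oxidase subunits Cox6a1 (77.6% ± 26.1), Cox4i1 (76.3% ± 14.9), Cox7a2 (56.6% ± 5.81) and Cox5a (50.6% ± 17.3), with Ndufa1 of complex I (91.8% ± 32.4), Uqcrq of complex III (65.2% ± 12.6), and Atp5e (60.5% ± 6.73) and Atp5j2 (40.8% ± 13.5) of ATP synthase. Uqcrc1, of complex III, had the least label left (11.4% ± 9.93) and was not called. Of the 4 glycolytic genes with at least 10000 covered T positions, Pkm, pyruvate kinase, was slower (55.5% ± 5.12, adjusted p = 0.00856, but 0.104 without library 8), while Ldhb (87.8% ± 24.2) and Gpi1 (28.6% ± 10.8) marked the ends of the list and were not called.

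**Figure D1:**
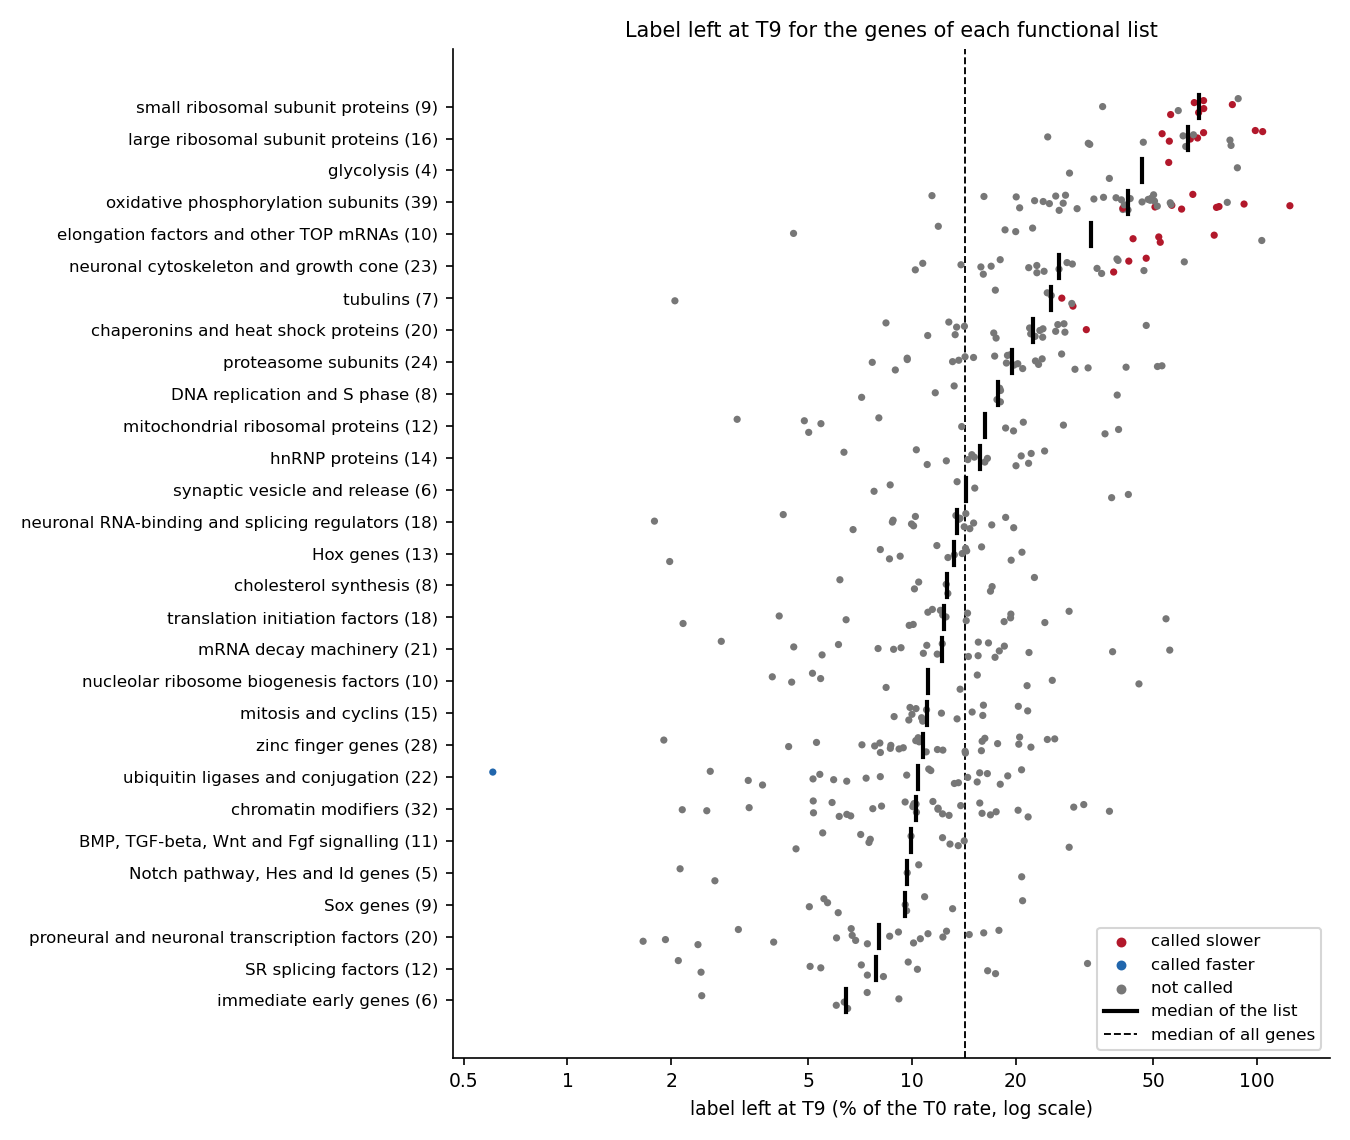
Label left at T9 as a percentage of the T0 rate (log axis) for single genes with at least 10000 covered T positions (points) of each functional list with at least 4 such genes, their number in parentheses. Short bars are list medians and the dashed line is the median of all 2058 genes (14.2%). Ribosomal proteins sit at 63.1% and 67.8%, immediate early genes at 6.43%.

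Some cytoskeletal mRNAs were slower, though most of those tested were not called. Actb, cytoplasmic actin, was at 5.01%, 4.91% and 4.85% at T0, 5.41%, 5.58% and 5.27% at T1, 3.86% and 3.46% at T3, and 2.01%, 1.71% and 1.78% at T9. The time points did not overlap, with T1 above T0 and then T3 and T9 in falling order, and 37.3% ± 3.22 was left (relative log2 rate 1.45 ± 0.18, adjusted p = 0.000657). Tubb2b, a tubulin of young neurons, fell from 3.84%, 4.05% and 3.44% to 1.13%, 1.02% and 0.927% (27.2% ± 2.73, adjusted p = 0.00753, 2.21e-05 to 0.153 over the alternatives), the smallest share left among the slower genes. Tuba1a, the main neuronal alpha tubulin, kept 29.3% ± 1.58 (adjusted p = 0.00428, 0.000381 to 0.810 over the alternatives, the highest after background subtraction). These were the 2 slower genes of 10 tubulins tested (0 by DESeq2, 1 without library 9, 16, 17 or 18, and 4 without library 14 or 15), and the list had a median of 25.3% over 7 genes. Tuba1c, with 2.05% ± 2.97, was far below the other tubulins.

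Of 28 genes of the neuronal cytoskeleton and growth cone, 3 were slower (1 without library 7, 8 or 9, and 9 without library 14 or 15). Tmsb4x, an actin-sequestering peptide, kept 47.7% ± 5.58 (adjusted p = 0.000657). Stmn2, a microtubule-destabilizing protein of growth cones, kept 42.5% ± 1.497 (adjusted p = 0.00569), and Dcx, which binds microtubules in migrating neurons, 38.4% ± 6.19 (adjusted p = 0.00685). The highest adjusted p over the alternatives was 0.106 for Tmsb4x (after background subtraction), 0.0654 for Stmn2 (without library 9) and 0.0667 for Dcx (without library 8). Stmn1 had the highest share of the list (61.6% ± 12.1, adjusted p = 0.229) and Dpysl5 the lowest (10.2% ± 6.01, or 2.98% after background subtraction), with a median of 26.7% over 23 genes, 20 of them above the median of all genes. Map2, the dendritic microtubule protein that the study used as a neuron marker, was close to the typical gene at 5.42%, 4.80% and 3.66% at T0 and 0.762%, 1.19% and 0.400% at T9. It had 16.9% ± 8.54 left and a relative log2 rate of 0.34 ± 0.41 (adjusted p = 0.814), negative in 4 alternatives.

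Further slower genes had other roles. Nnat, an imprinted membrane proteolipid of the developing brain, was at 4.42%, 4.07% and 3.88% at T0, 1.77% and 3.43% at T3, and 2.41%, 2.92% and 1.84% at T9 (57.96% ± 13.1, adjusted p = 0.000177). Library 14 lay just below the T9 values and library 15 between them and T0. Sod1, superoxide dismutase, kept 69.5% ± 15.8 (adjusted p = 0.000987). Wdr89, a WD repeat protein, kept 74.1% ± 7.04 (adjusted p = 9.23e-05). Hsp90ab1, the constitutive cytosolic chaperone, kept 32% ± 1.67 (adjusted p = 0.00184), the one slower gene of 24 chaperones. Snrpn and Snurf, both counted at 75.4% or 75.5%, overlap in the 3′ UTR and are not independent.

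Some slower genes had conversions without any 4sU. In the libraries without 4sU, 15 of the 71 slower genes had a T>C rate over 0.5%, and 11 over 1%, against 152 of the 2058 well covered genes (7.39%) over 0.5%. Elob, a subunit of the elongin complex, had 6.68%, 6.93% and 6.78% at T0, 5.28%, 5.92% and 6.13% at T9, and 3.30% without 4sU, and its label left was 85.0% ± 6.56 as measured and 70.8% ± 12.8 after subtraction. For Cpe, a peptide hormone processing enzyme with 3.15% without 4sU, the values were 77.3% ± 2.95 and 62.1% ± 4.93, and for Nme1, a nucleoside diphosphate kinase with 2.27%, they were 71.9% ± 7.93 and 56.4% ± 12.3. Another 3 slower genes fell much nearer to the typical gene, Slc25a39 (3.94% without 4sU) from 66.0% to 18.5% ± 15.8, Pdpk1 (3.22%) from 54.3% to 19.9% ± 10.0, and D8Ertd738e (3.44%) from 62.7% to 25.4% ± 21.1. These 3 genes were chosen after their values were seen. With subtraction 66 of the 71 slower genes kept their call, and with every transcript over 0.5% left out all 56 genes that remained did.

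**Figure D2:**
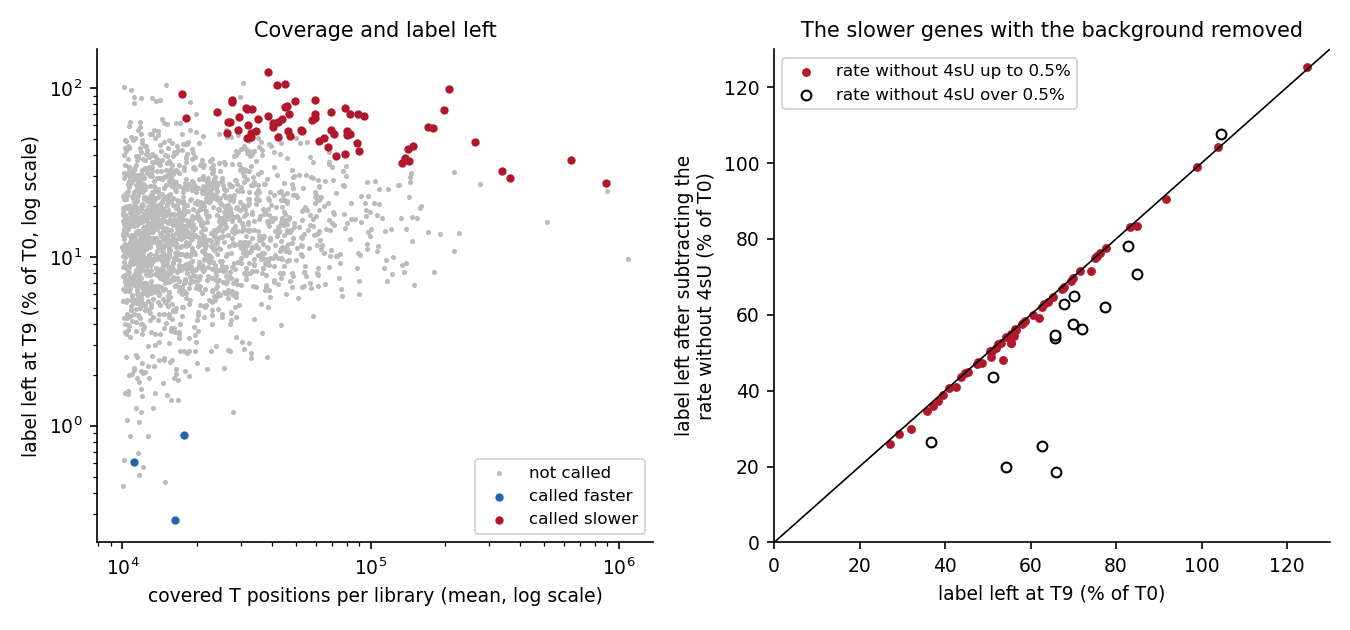
Left, mean covered T positions per library against label left at T9 as a percentage of T0 (both log axes) for the 2058 genes with at least 10000, with the called genes in color. Right, label left at T9 of the 71 slower genes before and after subtracting the rate of the same gene without 4sU, with the line of equal values. The 15 genes with a rate over 0.5% without 4sU (open circles) sit below the line, except Rps27rt (104.7% and 107.6%).

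The 5 faster genes were Men1, Lsm12, Mrps22, Vcpip1 and Ube2h, which have different roles. Men1, the menin tumor suppressor and chromatin adaptor, was at 5.35%, 5.33% and 3.69% at T0, 5.56%, 0.510% and 2.70% at T1, 2.24% and 2.48% at T3, and 0.0168%, 0.00480% and 0.0181% at T9. The libraries at T9 lay below those at T0 and below its rate without 4sU of 0.0486% (0.277% ± 0.153 left, relative log2 rate -5.61 ± 1.03, adjusted p = 0.0113). Lsm12, an RNA-associated LSM protein, was at 8.63%, 5.90% and 5.78% at T0, still at 5.33% and 4.87% at T3, and at 0.139%, 0.0121% and 0.0287% at T9 (0.883% ± 1.01 left, adjusted p = 0.0139). Ube2h, a ubiquitin-conjugating enzyme, was likewise at 4.503% and 7.22% at T3, within its range at T0, and at or under 0.0832% at T9 (0.607% ± 0.731, adjusted p = 0.0308, 5.25e-06 to 0.344 over the alternatives). The same held for Mrps22 of the mitochondrial ribosome, at 9.70% and 5.38% at T3 and 0.281% ± 0.185 left at T9 (adjusted p = 0.0157), where library 17 had no coverage.

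Vcpip1, a deubiquitinase, had no coverage in library 14, was at 0.895% in library 15 and had 0.301% ± 0.0382 left at T9 (adjusted p = 0.0245). Covered T positions averaged 17625 per library for Lsm12, 16228 for Men1, 11107 for Ube2h, 8969 for Vcpip1 and 5661 for Mrps22, against a median of 4537 over the genes tested. None of the 5 was called by limma or after background subtraction, 2 were called in the fit with only T0 and T9, and DESeq2 called all of them among 365 faster transcripts. The next smallest p in this direction belonged to Gabpb1, Lmnb2, Eps15l1, Atf2, Bcl11a, Sall3 and Topors, which had between 0.0925% and 1.21% left and adjusted p between 0.0546 and 0.0685.

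**Figure D3:**
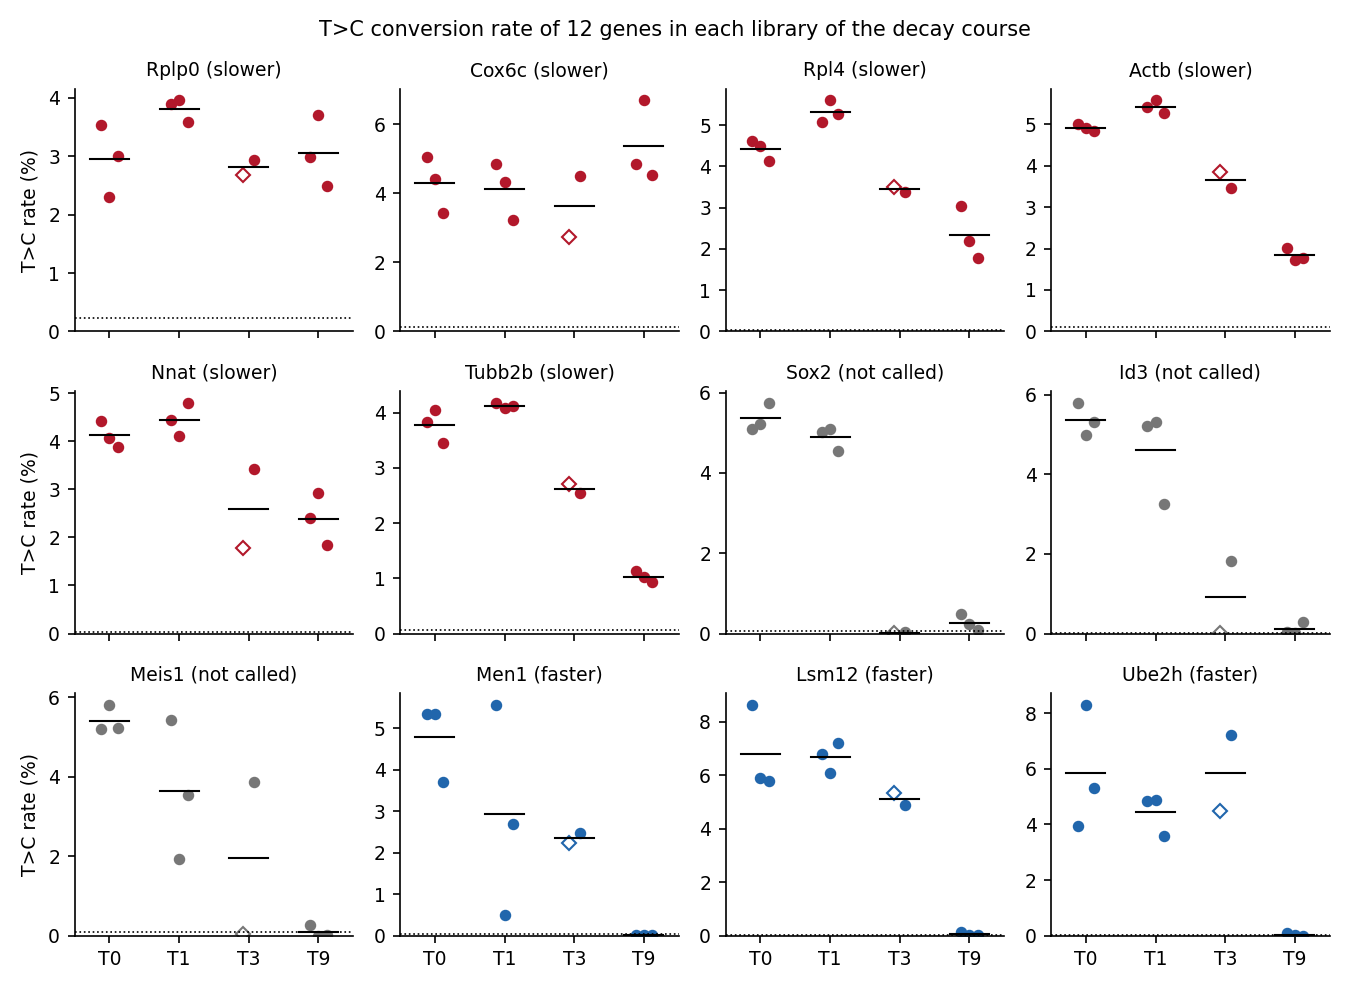
T>C conversion rate (percent) of 12 genes in every library of T0, T1, T3 and T9. Points are libraries, the open diamond is library 14, bars are group means and the dotted line is the rate of the gene without 4sU. Rplp0 and Cox6c at T9 overlap T0, Actb and Tubb2b fall to 37.3% and 27.2%, and Men1, Lsm12 and Ube2h fall below 1%.

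Many lists of regulators lay below the typical gene in median, although few of their members passed the test singly. An exception was the hnRNP proteins, which bind and process pre-mRNA, at 15.7% with 10 of 14 genes above the median of all genes. Immediate early genes, which respond first to stimuli, had the lowest median of the lists (6.43% over 6 genes), and all 6 lay below the median of all genes, from Klf6 (2.45% ± 2.63) to Jund (9.15% ± 3.42). SR splicing factors had a median of 7.83% over 12 genes. Tra2b, which promotes inclusion of exons, was lowest (2.10% ± 2.41) and Srsf9 highest (32.3% ± 4.24), although Srsf9 had a rate of 1.36% without 4sU and 5.82% left after subtraction. None of the 15 immediate early genes or 18 SR factors tested was called.

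Transcription factors of the neural lineage had a median of 8.01% over 20 genes, with 17 below the median of all genes and none of 42 called. Meis1, a homeodomain cofactor of Hox proteins, was at 5.21%, 5.81% and 5.22% at T0 and at 0.264%, 0% and 0.00517% at T9 (1.66% ± 2.79), and Pou3f3 was highest (17.9% ± 6.77). Sox genes had a median of 9.55% over 9 genes, from Sox2, a progenitor factor (5.03% ± 3.77), to Sox4, which is active in young neurons (20.9% ± 4.06, or 13.4% after background subtraction). Sox2 was at 5.09%, 5.23% and 5.75% at T0, 0.00945% and 0.0275% at T3 and 0.483%, 0.245% and 0.0814% at T9, so that its rate at T3 was already below that at T9. Notch pathway, Hes and Id genes, which regulate the passage from progenitor to neuron, had a median of 9.67% over 5 genes, from Id3 (2.12% ± 2.79) to Hes6 (20.8% ± 5.76). Hox genes were near the typical gene at 13.2% over 13 genes, from Hoxa3 (1.98% ± 1.81, or -4.15% after background subtraction) to Hoxb6 (20.8% ± 19.3).

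Other lists of regulators were also below 14.2% in median. Signaling genes of the BMP, TGF-beta, Wnt and Fgf pathways had a median of 9.92% over 11 genes (Apc 4.603% ± 5.01, Bmpr2 28.5% ± 4.55, which was 45.1% without library 7), chromatin modifiers 10.3% over 32 genes (Kat6a 2.15% ± 3.20, or -1.08% after background subtraction, Ehmt2 37.3% ± 10.7), ubiquitin ligases and conjugating enzymes 10.4% over 22 genes (Ube2l3 highest, 20.8% ± 10.1), and zinc finger genes 10.7% over 28 genes (Zfp703 1.90% ± 2.33, or -3.25% after background subtraction, Zfp706 25.9% ± 32.1). The machinery of mRNA decay itself had a median of 12.2% over 21 genes, with 10 above the median of all genes and 11 below. Lsm7, of the ring that binds deadenylated messages, had the highest share there (55.9% ± 36.9) and Zfp36l1, which binds AU-rich elements, the lowest (2.79% ± 3.74). None of the 57 decay genes tested was called. The only calls on these lists were those of Ube2h and, among mitochondrial ribosomal proteins, Mrps22.

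Half-lives were fitted as an exponential decay. With the hours of the methods, 721 of the 2058 well covered genes had an R squared over 0.6 and a median half-life of 272 min, and only 8 of the 71 slower genes passed that filter. With 0 and 9 h alone, 1935 genes were kept at a median of 189 min, the slower genes (53 kept) at 633 min and the 5 faster ones at 64.5 min. The faster genes were at 222 min with the hours of the labels (5 kept) and at 204 min with those of the methods (2 kept). Actb, which passed with either set of hours, was at 627 min with the hours of the methods and at 379 min with 0 and 9 h alone. Cox6c, Rplp0 and Rps27rt, at 103.9% to 125% label left, gave no half-life with either set of hours. With the hours of the labels the median was 180 min over 1191 genes.

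Uptake of label in the anabolic assay, read from 6 libraries that share none with the decay course, gave another reading of turnover. Uptake is taken here as the rate after time 3 of labeling as a percentage of that after time 9, so that an mRNA replaced fast has a high value. The rate without 4sU was not subtracted from it. Over 1521 genes with at least 10000 covered T positions in both groups, the median was 51.2%. It was 29.5% for the 71 slower genes, and over quintiles of genes from the least to the most label left it was 65.5%, 58.3%, 53.7%, 43.1% and 32.6%. Spearman's rho with label left was -0.36 over the 2058 well covered genes and -0.62 over the 208 with at least 50000, across genes that are no independent replicates and that share the libraries.

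Lists differed in uptake as well. Oxidative phosphorylation subunits had a median uptake of 27.1%, large ribosomal subunit proteins 28.1% and neuronal cytoskeleton genes 28.9%. Proteasome subunits had 30.5% and small ribosomal subunit proteins 38.4%, although the small subunit proteins kept more label, whereas zinc finger genes had 76.6%, Sox genes 77.4%, Hox genes 78.9%, neural transcription factors 79.5% and Notch, Hes and Id genes 93.5%. Hox genes thus had a high uptake although their label left was near the median. Tmsb4x had an uptake of 21.2%, Rpl4 20.8% and Pkm 12.5%, against 86.1% for Id3, 83.7% for Sox2 and 79.6% for Lsm12.

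**Figure D4:**
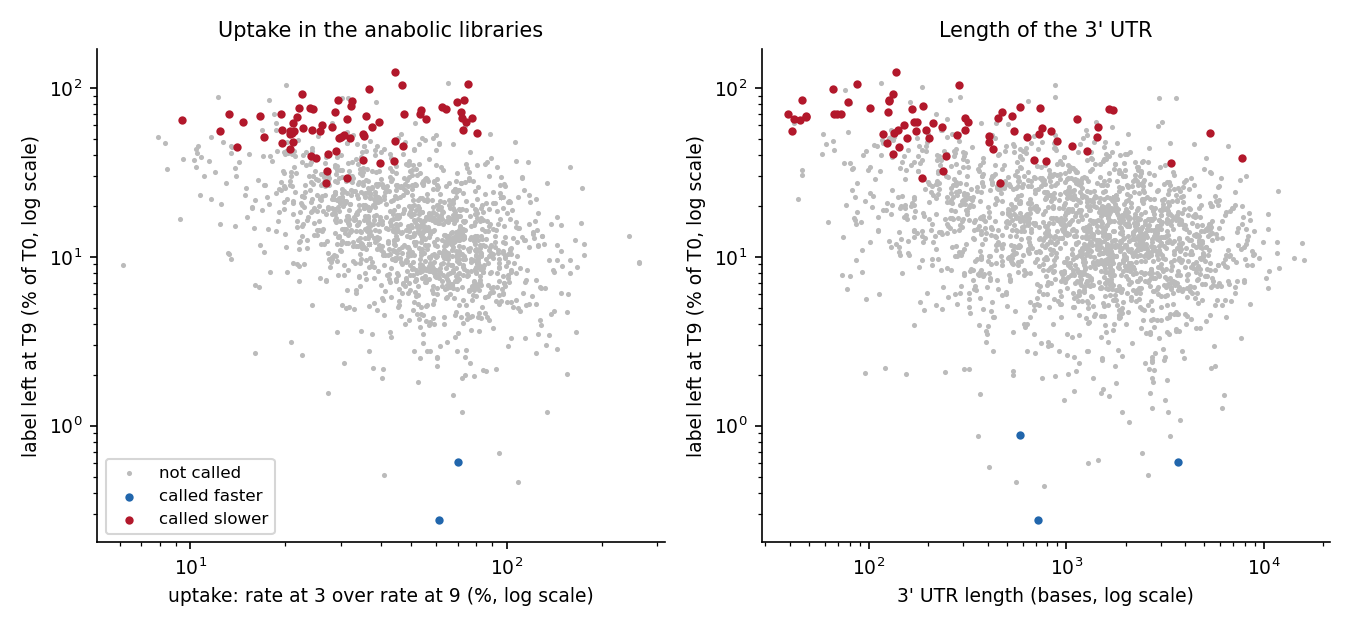
Left, uptake in the anabolic libraries (rate at 3 as a percentage of the rate at 9) against label left at T9 for 1521 genes. Right, length of the 3′ UTR against label left at T9 for 2058 genes. All axes are logarithmic and called genes are colored. The slower genes lie toward low uptake (median 29.5%) and short 3′ UTRs (median 212 bases).

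Slow mRNAs had short 3′ UTRs. The median length was 212 bases for the 71 slower genes and 1311 bases over the 2058 well covered genes, and over quintiles from the least to the most label left it was 1688, 1641, 1543, 1187 and 567.5 bases. It was 90.5 bases for the large and 72 bases for the small ribosomal subunit list, 158 bases for oxidative phosphorylation and 190 bases for the tubulins and for the proteasome, whose median label left was 19.5%. For the slower genes outside the ribosomal lists it was 306 bases. Spearman's rho between length and label left was -0.31 over 2058 genes and -0.50 over 208. Covered T positions also rose with label left (rho 0.19), and the rate without 4sU did so too (rho 0.21, and -0.06 with label left after subtraction).

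The sequence of the 3′ UTR could be taken from GENCODE transcripts of the same build for 1822 of the 2058 genes (88.5%). The letters ATTTA, the core of AU-rich elements, were sought on the strand of the mRNA, and 73.9% of these 3′ UTRs held at least 1. The share fell from 82.1% in the quintile with the least label left to 54.6% in that with the most, and the median number per 1000 bases from 1.73 to 0.630. Of the 57 slower genes with a sequence 19 held it, and all 5 faster genes did. TGTANATA, the site letters of Pumilio proteins, fell from 40.7% to 15.2% of 3′ UTRs. Both counts rise with length, and rho with label left was -0.18 for the number of ATTTA per 1000 bases and 0.10 for GC content. A match of these letters is a description and no proof of a binding site.

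For comparison, windows of 30 bases with ATTTA in capitals are shown from 3′ UTRs of mRNAs with little label left and of Wdr89, which kept 74.1% (mm10, mRNA strand, 5′ to 3′). Mdm2 (7.50% ± 6.77 left) held 8 copies, Zfp36l1 9, Vcpip1 18, Hoxa3 6 and Klf6 7, against 3 in Wdr89 and 2 in Rplp0 (103.9% left), and the windows were chosen for the copies they hold.
Mdm2, chr10:117689814-117689843, minus strand: tgttaataataagaacATTTAATTTATTTA
Zfp36l1, chr12:80108434-80108463, minus strand: aagcttATTTAacttatcaaaacgtATTTA
Vcpip1, chr1:9721311-9721340, minus strand: ATTTAgggccctattattaagtaacATTTA
Hoxa3, chr6:52169421-52169450, minus strand: tgtgtgcttgtgaacagtcagATTTATTTA
Klf6, chr13:5867997-5868026, plus strand: atttgtaacccattgtataagctgtATTTA
Wdr89, chr12:75631707-75631736, minus strand: taatcaggagctatATTTAtactatATTTA
Rplp0, chr5:115563506-115563535, plus strand: tctcttaaaactccggtctggATTTATTTA
The letters thus occurred in slow and in fast mRNAs. The 3′ UTR of the slower gene Rpl4 (chr9:64178445-64178562, 118 bases) was short and held no ATTTA.

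A pyrimidine run at the start of the mRNA, as in TOP messages, was sought in RefSeq promoters of GRCm38.p6 as a C within 2 bases of the annotated start, followed by at least 4 letters that are C or T. It was present in 12.4% of the 6618 tested genes with an entry (81.3% of 8145) and in 10.6% of all genes in the table. Of the 13 large subunit genes with an entry 4 held it. Fewer than the 80% needed had an entry among the small subunit genes, the other TOP genes and the slower genes (52 of 71), so that the check is void for these lists. The starts of 7 ribosomal protein and other TOP genes that held a run are shown as examples, with the run in capitals (10 bases before the annotated start and 20 from it).
Rpl14, chr9:120571507-120571536, plus strand: ggccctctCTCTTCTCgctgagcgccgcca
Rpl18, chr7:45718061-45718090, plus strand: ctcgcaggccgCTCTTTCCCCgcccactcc
Rpl27a, chr7:109519185-109519214, plus strand: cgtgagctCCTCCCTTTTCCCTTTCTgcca
Rpl34, chr3:130730379-130730408, minus strand: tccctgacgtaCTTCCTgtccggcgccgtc
Rack1, chr11:48800350-48800379, plus strand: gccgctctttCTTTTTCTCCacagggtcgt
Eif3f, chr7:108934405-108934434, plus strand: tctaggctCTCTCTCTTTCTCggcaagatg
Eef1a1, chr9:78481705-78481734, minus strand: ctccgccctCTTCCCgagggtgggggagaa
Of these, Rpl34 (67.3% ± 22.3 left), Rack1 (56.2% ± 12.95), Eif3f (51.9% ± 24.2) and Eef1a1 (52.4% ± 11.3) were slower at T9. Rpl4, Rplp0, Rpl26, Rps26, Rps9 and Eef2, also slower, held no run at their annotated start. This says only that these letters are not in this window. The examples were chosen for their run, and a link between run and decay was not tested. Eif2b5, with 2.16% of its label left, did hold a run. Among well covered genes with an entry, the run was present in 13.2% of the quintile with the least label left. In the quintile with the most it was present in 12.5%.

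Levels of mRNA were measured by reads and not by conversions. Few transcripts were called between T9 and T0. Of 17359 transcripts tested by edgeR, 5 were higher at T9 than at T0 (0.0288%) and 2 lower (0.0115%), with 802 at an unadjusted p under 0.05 and 11 higher and 17 lower by DESeq2. At T3 edgeR called 14 higher (0.0806%) and 45 lower (0.259%), and DESeq2 694 and 1505, with 0 to 1552 and 0 to 3502 by edgeR when a library was left out, the highest without library 15. The summed progenitor markers were also lower at T9 than at T0, and their part in these calls was not tested. Tmsb4x fell from 2710, 3404 and 2757 CPM at T0 to 966, 1210 and 567 CPM at T9 (log2 fold change -1.60 ± 0.20, adjusted p = 0.00148), while at T1 it was at 2476, 3333 and 2554 CPM. Eef1a1 fell from 616, 708 and 867 CPM to 212, 232 and 116 CPM (log2 fold change -1.87 ± 0.30, adjusted p = 0.0153). Both genes were thus slower by their label and lower by their reads at T9, with no overlap between T9 and T0. Label left is a rate, so for genes whose reads fell it does not give the amount of labeled RNA kept. The part of newly made mRNA in the slower calls of Tmsb4x and Eef1a1 was not tested.

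Among the higher transcripts were Adgrl1, a synaptic adhesion receptor (496 ± 84.7 to 1202 ± 229 CPM, adjusted p = 0.0171), Map6, a microtubule stabilizer of neurons (243 ± 11.5 to 910 ± 164 CPM, adjusted p = 0.0350), and Dync1h1, the dynein heavy chain (625 ± 127 to 1757 ± 516 CPM, adjusted p = 0.0405). In each of them every library of T9 lay above every library of T0. Their label left was 14.6% ± 10.4, 11.5% ± 1.03 and 29.8% ± 5.32 in the same order, and none was called slower or faster. Fabp7, a fatty acid binding protein of radial glia, had the next smallest p among lower transcripts (169 ± 30.9 to 13.9 ± 8.17 CPM) and did not pass the test (adjusted p = 0.0819, though 0.000111 by DESeq2). These calls depended on single libraries, since without library 7, 8, 9 or 18 there were 0 higher and 1 lower, without library 16 there were 1 and 1, without library 14 there were 187 and 69, without library 15 there were 147 and 64, and without both T3 libraries 114 and 38.

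**Figure D5:**
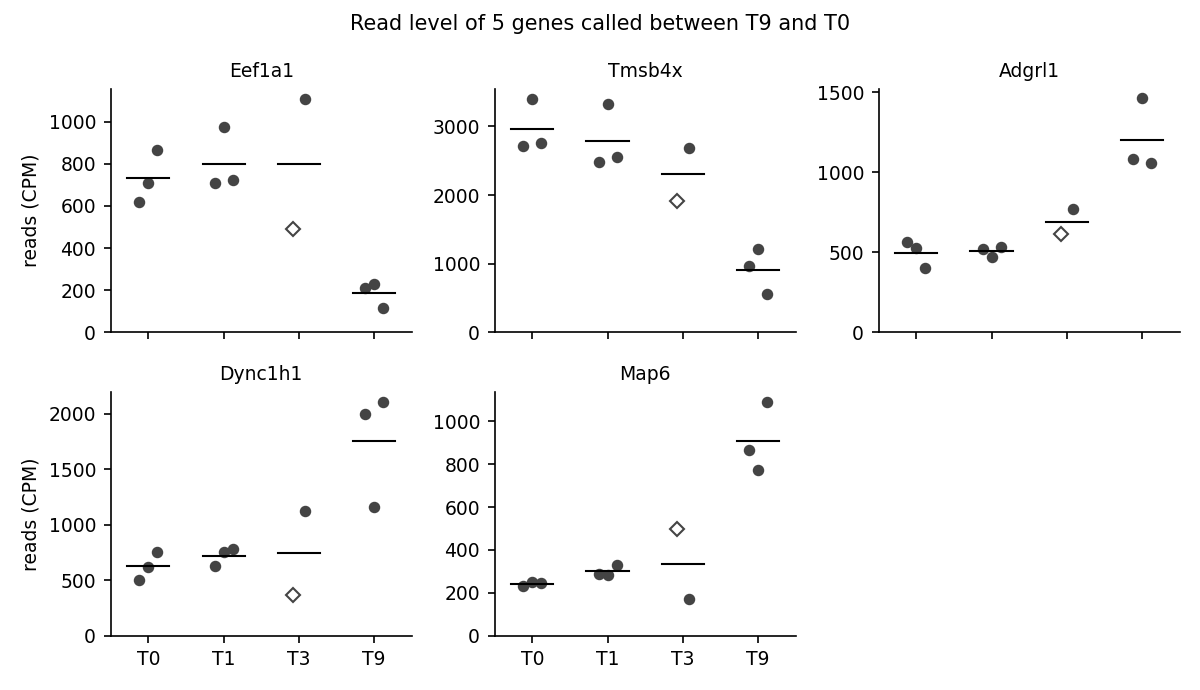
Read level (CPM) in every library of T0, T1, T3 and T9 for 5 of the 7 genes called between T9 and T0. Points are libraries, the open diamond is library 14 and bars are group means. Eef1a1 and Tmsb4x fall at T9 (116 to 232 and 567 to 1210 CPM) and in the other 3 every library of T9 lies above T0.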

How the data were processed

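The authors mapped QuantSeq reads to mm10 with SLAMdunk 0.3.3, masked called polymorphisms and counted over 3′ UTR intervals. The deposited counts of reads, covered T positions, T>C conversions and reads with a conversion were summed per RefSeq NM transcript. The conversion rate, which the authors also deposited as a fraction, and the deposited CPM were recomputed from these counts. The files hold no multimapped reads.

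Conversions were tested in R 4.3.3 with edgeR 4.0.16 (quasi-likelihood, 1 coefficient per time point over 11 libraries), with log covered T positions and, for relative decay, a median of ratios per library as offset. P-values were adjusted by Benjamini-Hochberg over all transcripts covered at 1000 or more T positions in the average library (threshold 0.05). Reads were tested after TMM and the filter on low counts. Alternatives used DESeq2 1.42.0, limma 3.58.1, other coverage minimums, scalings and backgrounds, and each library left out. With the replicate spread simulated, the test recovered 73.3% of 4-fold slower transcripts above 50000 covered T positions, 15% from 10000 to 50000 and none below. Of 4-fold faster ones it recovered 60%, 5% and none. Each share is of 15 simulated transcripts, or of 20 from 10000 to 50000. Half-lives required R squared over 0.6 and at most 5000 min. Python 3.11.15 with numpy 2.4.6, pandas 2.3.3, scipy 1.17.1 and matplotlib 3.10.9 was used. Errors are SDs between libraries for rates, label left and CPM, and standard errors of the fit for log2 values, and reads carry no molecular identifiers. Sequences of 3′ UTRs came from GENCODE vM21 transcripts and start sites from RefSeq.

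The rule for named genes took the 12 smallest p in each direction at T9, called genes with the 6 largest and 6 smallest shares left, the extremes of each of 30 lists, the 3 smallest p at T1 and of the read test, and Rpl4 and Map2. The members, gene lists and markers were chosen with earlier results of these data known. Some genes that the rule names are not reported here, and other genes named in the text fall outside the rule and were chosen after their values were seen.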

Additional observations from a re-analysis of the deposited data

How the results depend on the processing

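No paired analysis was possible because every library of the course has its own number. At T9 the main counts were 99 slower and 10 faster. Slower moved to 217 with DESeq2, 150 after background subtraction, 152 with a coverage minimum of 10000 and 204 with only T0 and T9. Faster moved to 365 with DESeq2, 0 with limma, 18 with TMM, 2 after background subtraction, 27 with the minimum of 10000, 26 by reads with a conversion, 33 by whole library rate and 6 with 1 transcript per cluster. Leaving out a library gave 47 to 278 slower and 0 to 83 faster. Of 733 refits of 31 named genes, 62 lost and 45 gained a call, and 4 reversed, all for the Map2 relative log2 rate T9 against T0 (-0.0940 after subtraction, -0.0612 by limma, -0.14 by whole library rate, and -0.20 to 0.62 with a library left out, negative without library 17).

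At T3, 37 slower and 38 faster became 147 and 699 with DESeq2, 5 and 0 with limma, and 0 to 547 and 0 to 772 with a library left out (1 and 4 without 14, the highest without 15). Unscaled, DESeq2 gave 6275 lower and 4 higher at T9 and 1569 lower at T3, a minimum of 10000 gave 2548 and 0 at T9 and 376 at T3, a minimum of 300 gave 6 higher, and leaving out a library gave 2093 to 5411 lower and 0 to 1 higher at T9, and 22 to 1385 lower and 0 to 6 higher at T3.

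The settings without the T3 libraries, without transcripts over 0.5% in the absence of 4sU, with DESeq2 and limma for the relative rate at T1 and T3, and with DESeq2 for reads there, were chosen after seeing the data. Without the T3 libraries there were 286 slower and 74 faster, 2 higher unscaled, and 114 higher and 38 lower by reads. DESeq2 gave, by reads, 4 higher and 2 lower at T1, and 694 higher and 1505 lower at T3 against 14 and 45. By reads at T9, DESeq2 gave 11 and 17 and no filter 20 and 7. Leaving out a library gave 0 to 187 higher and 1 to 69 lower at T9, and 0 to 1552 and 0 to 3502 at T3.

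Summed label left was 48.7% at T3 (46.8% after subtraction, 46.7% to 49.96% without a library) and 18.7% at T9 (15.8% after subtraction). Half-lives had a median of 272 min over 721 genes, and 180 min over 1191 with the hours of the labels, with 1935 genes kept at 0 and 9 h and 2045 without an R squared minimum. The cause of these shifts was not tested. Under 10000 covered T positions, no simulated 4-fold change was recovered with the spread between replicates. With counting error only, 66.7% of faster and 100% of slower ones were, each share of 15 simulated transcripts.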

Other observations

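Several lists were not described in full above. Proteasome subunits had a median of 19.5% over 24 genes, with 18 above the median of all genes, none of 33 called, and Psmb3 (53.03% ± 21.1) and Psmc2 (7.66% ± 0.820, or 5.51% after background subtraction) at the ends. Chaperonins and heat shock proteins had a median of 22.4% over 20 genes, 14 of them above the median of all genes, from Hspe1 (47.7% ± 26.3) to Pdia6 (8.39% ± 4.22). Among hnRNP proteins, the paralogs Pcbp2 (24.2% ± 3.02) and Pcbp1 (6.34% ± 6.16) were the extremes. Cholesterol synthesis genes had 12.6% over 8 genes, from Srebf2, the transcription factor of that pathway (22.6% ± 8.67), to Sc5d (6.17% ± 5.09).

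Cell cycle lists lay on either side of the median of all genes. DNA replication genes had a median of 17.8% over 8 genes (Lig1 39.3% ± 19.4, Fen1 7.13% ± 7.80) and mitosis genes and cyclins 11.01% over 15 genes (Cdk4 21.6% ± 11.9, Ccnd2 8.86% ± 6.76). Synaptic vesicle genes had 14.3% over 6 genes (Scg5 42.4% ± 47.8, Sv2a 7.75% ± 7.12), and neuronal RNA-binding proteins 13.5% over 18 genes (Celf4 19.7% ± 6.93, Igf2bp2 1.79% ± 0.946). None of these genes passed the test.

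At T1, where no transcript passed the test, the smallest p in the upward direction belonged to Btbd11, Eola1 and Tysnd1, which were at 0 in all libraries of T0, and in the downward direction to Fam78b, Fdx1 and Pde4d, which were at 0 in all libraries of T1. Btbd11 was at 2.41%, 2.44% and 3.03% at T1, and Fdx1 at 2.96%, 5.19% and 10.7% at T0.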
